A study of Mus musculus with 40 samples.

Results

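The genes examined here are 10 antigen presentation genes measured in the livers of mice given GenX. They comprise 6 genes of the class I pathway (B2m, H2-K1, H2-D1, Tap1, Tap2 and Tapbp) and 4 genes of the class II pathway (Cd74, H2-Aa, H2-Ab1 and H2-Eb1). They were chosen by gene symbol, with earlier results of these data known. They were targeted by 20 of the 30146 probes of the deposited table (13 for class I and 7 for class II), and are 10 of its 21448 genes. After the filter on low counts, 9 of the 10 genes were tested with 18 probes, among 12418 genes and 17877 probes tested in all; H2-Eb1 did not pass. Each gene is represented by its most counted probe, and its other probes are named where they differ.

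The samples were livers of wildtype Crl:CD1(ICR) mice, an outbred stock. Males and females received GenX, a perfluorinated ether acid, by oral gavage for 90 days at a daily dose of 0.1, of 0.5 or of 5 mg/kg bw/d, and controls of each sex received the deionized water vehicle. Mice were housed singly, the age was not given in the labels, and 5 mice per sex and dose were measured. RNA came from a formalin-fixed, paraffin-embedded section scraped into lysis buffer, so that hepatocytes and all other liver cells contributed to each library. One female of the 0.5 mg/kg group was left out for low depth, which left 20 males and 19 females.

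Class I molecules are found on nearly all nucleated cells and display peptides from inside the cell to cytotoxic T cells. Their heavy chains, such as those of H2-K1 and H2-D1, pair with the light chain beta-2-microglobulin, encoded by B2m. Tap1 and Tap2 form the transporter that carries peptides into the endoplasmic reticulum, and tapasin, encoded by Tapbp, holds empty class I molecules beside it. Class II molecules are made mainly by professional antigen presenting cells, which in liver include Kupffer cells, dendritic cells and B cells, and display peptides taken up from outside. H2-Aa and H2-Ab1 encode the alpha and beta chains of one class II molecule, H2-Eb1 encodes the beta chain of another, and Cd74 encodes the invariant chain that guards their binding groove. Interferon gamma raises genes of both pathways.

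Of the 10 genes, 8 lie within 1352 kb of chromosome 17, in the major histocompatibility complex (GRCm38, GENCODE M21). On that chromosome Tapbp spans chr17:33915899-33929292, H2-K1 chr17:33996017-34000347 and Tap1 chr17:34187553-34197225. Tap2 spans chr17:34203527-34216321, H2-Ab1 chr17:34257689-34269419 and H2-Aa chr17:34282744-34287823. H2-Eb1 spans chr17:34305867-34316674 and H2-D1 chr17:35262730-35267499. H2-K1 and H2-Aa are on the minus strand and the others on the plus strand. B2m lies on the plus strand at chr2:122147686-122153083. Cd74 lies outside the complex.

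The promoters of these genes are known for shared motifs, which are shown because class I and class II genes are known to have some of them in common. RefSeq promoter windows of 300 bases (250 before and 50 after the start, GRCm38.p6) were matched for 7 of the 10 genes, B2m, H2-K1, H2-D1, Tap1, Tapbp, H2-Aa and H2-Eb1. Both strands were searched for the Y box (CTGATTGG, bound by NF-Y), the core of the interferon-stimulated response element (GAAANNGAAA), the X2 box (TGACGTCA) and the DR1 element of PPAR (by name). The Y box occurred in 5 of the 7 genes, against 4.7% of all 27025 genes with RefSeq promoters. The interferon element core was in 1 of the 7 (B2m) against 3.99% of all genes, the X2 box in 1 (H2-Aa) against 2.03%, and the DR1 element in 0 against 0.0481%. No match says only that these letters are not in the window. Below, 30 bases are given 5′ to 3′ on the strand of the gene, with the motif in capitals. The printed motifs do not overlap each other.
H2-K1, Y box, chr17:34000321-34000350, minus strand: atcaccaagaaCCAATCAGtgtcgccgcgg
H2-D1, Y box, chr17:35263030-35263059, plus strand: gattccaggagCCAATCAGcgtcgccgcgg
Tap1, Y box, chr17:34187323-34187352, plus strand: ggctcggctttCCAATCAGcggctgcgcgc
H2-Aa, Y box, chr17:34287856-34287885, minus strand: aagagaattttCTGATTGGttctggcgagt
H2-Eb1, Y box, chr17:34305794-34305823, plus strand: ctcctttgatgCTGATTGGctcccagcact
H2-Aa, X2 box, chr17:34287879-34287908, minus strand: gctggcaacttTGACGTCAtcacaagagaa
B2m, interferon element core, chr2:122147538-122147567, plus strand: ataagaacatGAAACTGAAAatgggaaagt
In the windows shown, the 3 class I genes with a Y box carried it in the inverted orientation, and the 2 class II genes in the forward orientation.

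The 39 libraries held 10341341 to 15562253 reads (median 13180219). Reads per molecule were estimated from the first peak of each library's count histogram, which lay at 20.8 to 44.8 reads. Some counts lay below that peak, such as 16 reads of H2-Aa in female 453 (peak at 40.1 reads), so molecule numbers are approximate. The estimates were 287244 to 656743 molecules per library. The median rose from 329947 molecules in male controls to 591295 in males at 5 mg/kg bw/d, and went from 418492 in female controls to 320470 in females at 5 mg/kg bw/d. Values below are CPM, that is read counts scaled to a common library size with TMM factors, and a difference was called at a false discovery rate (FDR) under 10% in edgeR's quasi-likelihood test. The labels do not say how far the mice of a group shared litters, and probes differ in efficiency and are not scaled to length, so levels of different probes are not on a common scale. The labelled sex matched 5 probes of Y-linked genes in every mouse.

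The class I light and heavy chains were measured deeply and the peptide transporter sparsely. The B2m probe had a median of 1326 CPM over the 39 mice (983 to 1747; a median of 513 molecules), and H2-K1 had 1634 CPM (1162 to 2574; 600 molecules). H2-D1 had 112 CPM (35.2 to 247; 39.8 molecules). The genes that load the peptide followed far behind in molecules. Tap2 had a median of 18.8 CPM (6.25 to 51.5) and 8.11 molecules, and Tapbp had 12.1 CPM (2.48 to 27.8) and 4.59 molecules. Tap1 had reads in 17 of the 39 mice, 19.4 molecules in all. For Tap1 the precision was too low for a level in a single mouse.

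Among class II genes only Cd74 was measured deeply, with a median of 238 CPM (90.9 to 909) and 106 molecules. H2-Aa had a median of 10.1 CPM (0 to 50.7; reads in 36 mice; 4.27 molecules), and H2-Ab1 had 4.61 CPM (0 to 25.2; reads in 28 mice; 1.69 molecules). H2-Eb1 had 41 reads in 1 of the 39 mice, a male control, which was 1.15 molecules. The class II comparison thus rests on Cd74, with H2-Aa and H2-Ab1 close to what a few molecules can show.

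**Figure D1:**
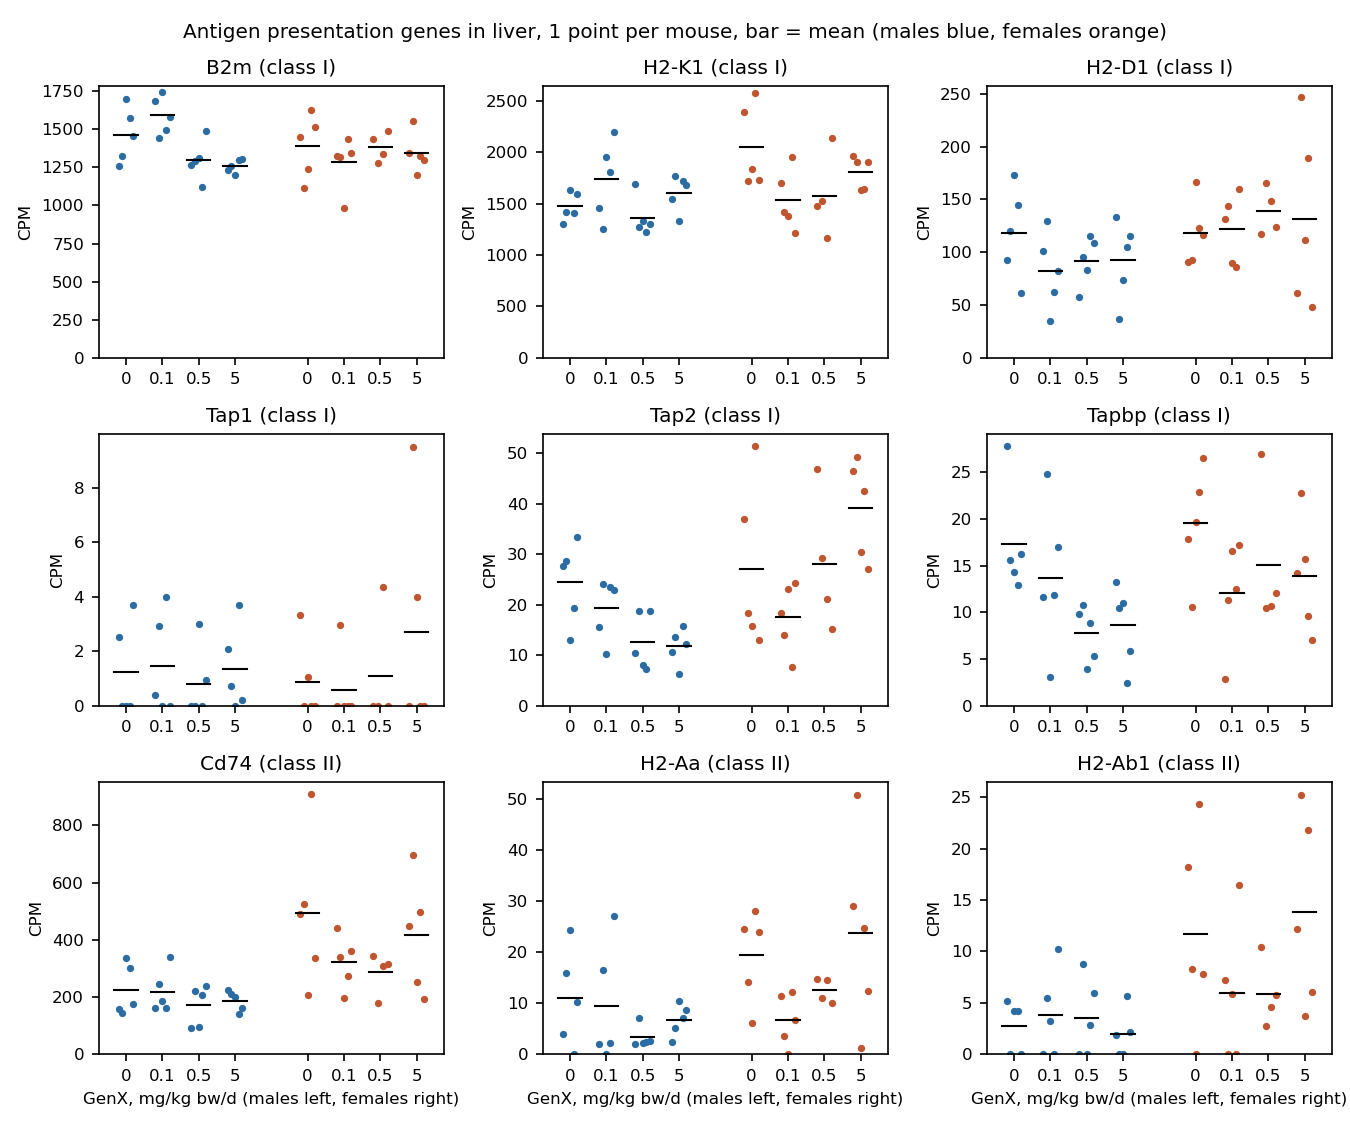
CPM of the 9 tested genes (vertical axes, linear, each from 0) in each mouse by dose of GenX (horizontal axes, mg/kg bw/d). Males are in blue at the left of each panel and females in orange at the right, with bars at the group means. The male Tap2 values at 5 mg/kg bw/d lie between 6.25 and 15.8 CPM and the female ones between 27.1 and 49.2 CPM.

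The first question was whether GenX changed these genes in males. Of the 9 genes tested, 0 were called at 0.1 mg/kg bw/d, 0 at 0.5 mg/kg bw/d and 1, Tap2, at 5 mg/kg bw/d. Over all probes the shares called were 0.0168%, 2.48% and 8.46%, and 3.48% were called lower at 5 mg/kg bw/d. With 9 genes, 1 call at the highest dose is near that background. Over both sexes, 54 tests of a gene against its control gave 1 call, and 6 had an unadjusted p under 0.05.

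Tap2, a subunit of the peptide transporter, was lower in males at 5 mg/kg bw/d. The 5 male controls had 27.7, 28.6, 13, 19.4 and 33.5 CPM (24.5 ± 8.17, SD, n = 5). The males at 5 mg/kg bw/d had 10.7, 13.7, 6.25, 15.8 and 12.3 CPM (11.7 ± 3.61, SD, n = 5). One control lay within the range of the treated males, and the other 4 lay above all of them. The difference was -1.06 on the log2 scale (SE 0.38, 95% confidence interval -1.81 to -0.3, FDR-adjusted p = 0.0838 by edgeR). The median of all probes stood at 0.1 in this comparison, and relative to it Tap2 stood at -1.16.

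At the lower doses the male Tap2 values were 15.6, 24.2, 10.2, 23.6 and 23 CPM (0.1 mg/kg bw/d) and 10.4, 18.8, 7.99, 7.28 and 18.7 CPM (0.5 mg/kg bw/d). At 0.1 mg/kg bw/d all 5 lay within or just below the control range, with a difference of -0.34 (adjusted p = 1 by edgeR). At 0.5 mg/kg bw/d the difference of -0.95 (95% confidence interval -1.71 to -0.2) did not pass the test after adjustment (adjusted p = 0.241 by edgeR). The group means thus stood lower at each higher dose, and every treated group overlapped the controls.

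Depth and probe both bear on the Tap2 call. The libraries of males at 5 mg/kg bw/d were the richest in molecules, yet held 3.2 to 9.9 Tap2 molecules against 4.2 to 10.3 in male controls. With counts expressed in molecules the difference was -1.07 (adjusted p = 0.0283 by edgeR), and with every library thinned to 286951 molecules, an alternative chosen after seeing the data, it was -2 (adjusted p = 0.00123 by edgeR). The thinning was a single random draw from few Tap2 molecules per library. Its larger difference and smaller p therefore do not strengthen the call. The call was lost in 7 of the 10 fits that left out 1 mouse (those without controls 101, 102 or 105 or treated mice 401, 402, 403 or 405), with a range of -1.22 to -0.9 and adjusted p from 0.0452 to 0.215 by edgeR. A second Tap2 probe, Tap2_68695, gave -0.67 (adjusted p = 0.892 by edgeR) and stood above 0 in males at the lower doses (0.5 and 0.33), and the third, Tap2_79305, near 0 CPM in these males, gave 3.6 (adjusted p = 0.57 by edgeR).

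B2m, the light chain, had 1259, 1326, 1697, 1576 and 1459 CPM in male controls (1463 ± 179, SD, n = 5) and 1232, 1257, 1199, 1300 and 1306 CPM at 5 mg/kg bw/d (1259 ± 45.4, SD, n = 5). The treated mice lay at the lower end of the control range or just below it. The difference of -0.22 (SE 0.11, 95% confidence interval -0.43 to 0) did not pass the test (adjusted p = 0.225 by edgeR). It was called when counts were expressed in molecules (-0.3, adjusted p = 0.0324 by edgeR) and by DESeq2 (-0.29, adjusted p = 0.0643). At 0.1 and 0.5 mg/kg bw/d the differences were 0.12 and -0.18, and neither was called.

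Tapbp, the tapasin gene, had 27.8, 15.6, 14.3, 12.9 and 16.2 CPM in male controls and 9.78, 10.8, 3.95, 8.91 and 5.34 CPM at 0.5 mg/kg bw/d. These ranges did not overlap, the 1 such case among 60 comparisons of a gene's treated and control ranges (all 10 genes in both sexes and 3 doses); over all tested probes 3.34% had ranges apart in this comparison. The fitted difference of -1.16 (SE 0.52, 95% confidence interval -2.2 to -0.12) was not called (adjusted p = 0.261 by edgeR). At 5 mg/kg bw/d Tapbp had 13.3, 10.5, 11, 2.48 and 5.91 CPM, with a difference of -1 (adjusted p = 0.247 by edgeR). One of these mice lay inside the control range.

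Neither heavy chain was called in males. H2-K1 had 1303, 1421, 1634, 1413 and 1591 CPM in male controls and 1540, 1766, 1327, 1717 and 1684 CPM at 5 mg/kg bw/d, with a difference of 0.13 (adjusted p = 0.88 by edgeR). H2-D1 went from 118 ± 43.5 CPM in male controls to 82.1 ± 36.2, 91.9 ± 22.7 and 92.7 ± 38.1 CPM at rising doses (SD, n = 5 each), and the differences of -0.53, -0.36 and -0.35 were not called. Tap1 differed by 0.24, -0.66 and 0.11 (adjusted p = 1 by edgeR in each). H2-K1 and H2-D1 have near-identical relatives in the complex, so counts of a probe could hold reads of another family member.

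No class II gene was called in males. Cd74 had 159, 142, 335, 302 and 176 CPM in male controls, 162, 244, 186, 162 and 338 CPM at 0.1 mg/kg bw/d, and 90.9, 222, 94.8, 207 and 238 CPM at 0.5 mg/kg bw/d. At 5 mg/kg bw/d it had 224, 209, 198, 140 and 162 CPM. All groups overlapped, and the differences were -0.03, -0.39 and -0.26 (adjusted p of 1, 0.869 and 0.959 by edgeR). H2-Aa went from 10.9 ± 9.66 CPM in controls to 9.52 ± 11.8, 3.26 ± 2.11 and 6.78 ± 3.15 CPM (SD, n = 5 each), and H2-Ab1 from 2.72 ± 2.52 to 3.79 ± 4.26, 3.51 ± 3.84 and 1.94 ± 2.32 CPM. In both genes the SD was close to the mean in several groups. The other H2-Aa probe, H2-Aa_77871, had the opposite sign at every dose in males (0.34, 0.89 and 0.33) and at the lower doses in females (1.86 and 2.36), and it was not called. Other probes of H2-Ab1, H2-D1 and H2-K1 differed in sign from the most counted one in 1 or 2 comparisons each, none of them called.

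**Figure D2:**
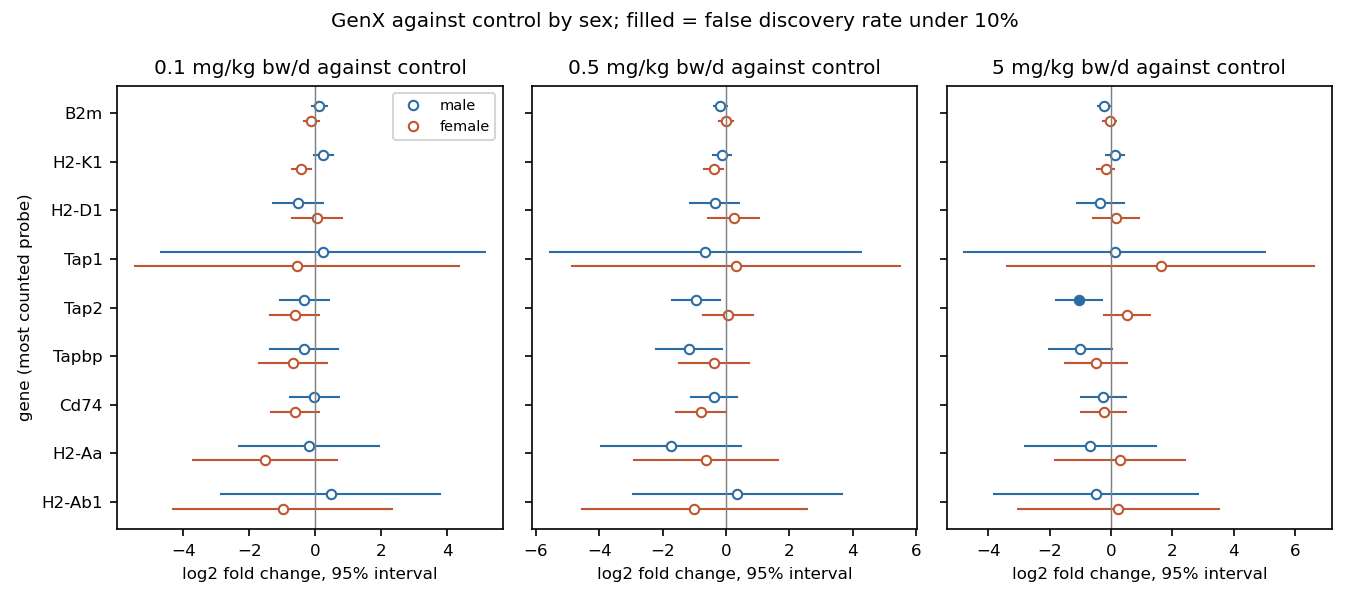
Log2 fold change against controls of the same sex (horizontal axes) for the 9 tested genes (vertical axis) at the 3 doses. Males are drawn above females for each gene, with 95% confidence intervals as bars, and a filled point marks an FDR under 10%. The only filled point is Tap2 in males at 5 mg/kg bw/d, and the intervals of Tap1, H2-Aa and H2-Ab1 are the widest.

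In females 0 of the 9 genes were called at any dose. Over all probes the shares called were 0%, 0.19% and 3.6%. At 0.1 mg/kg bw/d 1838 of all probes had an unadjusted p under 0.05 by edgeR and DESeq2 called 166. The gene with the smallest p was H2-K1.

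H2-K1 had 2390, 1718, 1836, 2574 and 1733 CPM in female controls (2050 ± 402, SD, n = 5) and 1698, 1420, 1377, 1956 and 1211 CPM at 0.1 mg/kg bw/d (1532 ± 295, SD, n = 5). Of these, 4 treated mice lay below all controls and 1 within their range. The difference of -0.42 (95% confidence interval -0.7 to -0.14) did not pass after adjustment (adjusted p = 0.475 by edgeR). At 0.5 mg/kg bw/d the 4 females had 1474, 1526, 1162 and 2135 CPM, with a difference of -0.38 (adjusted p = 0.497 by edgeR). At 5 mg/kg bw/d they had 1964, 1901, 1630, 1641 and 1907 CPM, with a difference of -0.18 (adjusted p = 0.761 by edgeR). The lowest group mean was thus at the lowest dose.

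Tap2 in females had 36.9, 18.4, 15.8, 51.5 and 13 CPM in controls and 46.4, 49.2, 30.4, 42.5 and 27.1 CPM at 5 mg/kg bw/d. The difference of 0.53 (SE 0.38, 95% confidence interval -0.22 to 1.27) was not called (adjusted p = 0.666 by edgeR). At 0.1 and 0.5 mg/kg bw/d the values were 17.5 ± 6.88 CPM (SD, n = 5) and 28.1 ± 13.7 CPM (SD, n = 4). The female controls spread over a wider range than any treated female group.

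B2m was nearly level in females, with 1390 ± 210 CPM in controls and 1283 ± 174, 1387 ± 95.4 and 1345 ± 130 CPM at rising doses; the differences were -0.12, 0 and -0.05. Tapbp had 19.5 ± 5.95 CPM in controls and 12.1 ± 5.73, 15.1 ± 7.96 and 13.9 ± 6.05 CPM, with differences of -0.69, -0.37 and -0.49. H2-D1 had 118 ± 31.1 CPM in controls and 122 ± 32.6, 139 ± 22.8 and 132 ± 85.1 CPM, with differences of 0.05, 0.24 and 0.16. None of these was called.

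Cd74 had 491, 525, 207, 909 and 335 CPM in female controls (493 ± 265, SD, n = 5), which was the widest spread of the 8 groups. At 0.1 mg/kg bw/d it had 442, 338, 197, 273 and 360 CPM, and at 0.5 mg/kg bw/d 344, 177, 309 and 315 CPM. At 5 mg/kg bw/d it had 449, 696, 251, 497 and 194 CPM. All treated groups overlapped the controls, and the differences were -0.61, -0.79 and -0.24 (adjusted p of 0.79, 0.497 and 1 by edgeR). H2-Aa had 24.5, 14.2, 6.01, 28.1 and 24 CPM in controls and 29, 50.7, 1.27, 24.8 and 12.4 CPM at 5 mg/kg bw/d. H2-Ab1 went from 11.7 ± 9.58 CPM to 13.8 ± 9.44 CPM at that dose, and neither gene was called at any dose.

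The classes were then set side by side. In males the median log2 fold change at rising doses was -0.11, -0.51 and -0.28 over the 6 class I genes and -0.03, -0.39 and -0.49 over the 3 class II genes, against 0, 0 and 0.1 over all probes. All 6 class I genes stood below 0 in males at 0.5 mg/kg bw/d, and 0 of them were called. In females the medians were -0.49, 0.03 and 0.06 for class I and -0.99, -0.79 and 0.23 for class II, against 0, 0 and -0.01 over all probes. All 3 class II genes stood below 0 at both lower doses in females, and 2 of 3 stood above 0 at 5 mg/kg bw/d. These counts share 1 set of controls per sex and carry no test.

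The next question was whether the effect differed between the sexes. The difference of the female and male effects was called for 0 of the 9 genes at each dose, against 0%, 0.38% and 1.29% of all probes; at 0.1 mg/kg bw/d 1500 probes had an unadjusted p under 0.05. Tap2 came nearest at 5 mg/kg bw/d, with a female effect higher than the male one by 1.58 on the log2 scale (SE 0.53, 95% confidence interval 0.52 to 2.64, adjusted p = 0.116 by edgeR). It passed the threshold with DESeq2 (1.68, adjusted p = 0.0636), with counts in molecules (1.58, adjusted p = 0.0541 by edgeR) and without 1 female control, animal 154 (1.95, adjusted p = 0.0908 by edgeR). The other Tap2 probes gave 0.97 (Tap2_68695, adjusted p = 0.997 by edgeR) and -3.63 (Tap2_79305, adjusted p = 0.919 by edgeR). H2-K1 at 0.1 mg/kg bw/d differed by -0.66 in the same direction of subtraction (adjusted p = 0.195 by edgeR).

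Averaged over the sexes, 0 of the 9 genes were called at any dose, against 0%, 1.85% and 12.5% of all probes; 1572 probes had an unadjusted p under 0.05 at 0.1 mg/kg bw/d. The lowest adjusted p was that of Tapbp at 5 mg/kg bw/d, where the average difference was -0.75 (adjusted p = 0.23 by edgeR). From 0.5 to 5 mg/kg bw/d 0 genes were called in either sex, against 2.62% of all probes in males and 1.25% in females. The smallest adjusted p of these steps was 0.498 in males and 0.7 in females by edgeR.

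The level of these genes in mice given vehicle alone was compared between male and female controls. Of the 9 genes 1, H2-K1, was higher in female than in male controls, against 2.14% of all probes called higher in females and 3.57% in either direction. Its values were 1303 to 1634 CPM in males and 1718 to 2574 CPM in females, so the groups did not overlap (3.56% of all probes had ranges apart here), and the difference was 0.48 (SE 0.14, 95% confidence interval 0.19 to 0.76, adjusted p = 0.0548 by edgeR). Another 2 H2-K1 probes, read in the same mice and so not independent, were called in the same direction. H2-K1_30014 went from 417 ± 64.1 to 691 ± 148 CPM (0.73, adjusted p = 0.0585 by edgeR) and H2-K1_70796 from 182 ± 33.4 to 553 ± 468 CPM (1.6, adjusted p = 0.0275 by edgeR). The remaining probe, H2-K1_74158, described below, was over 100 CPM in 3 of 5 female controls and 0 of 5 male controls. Over the 39 mice it had a Pearson r of 0.75 with H2-K1_70796 and 0.53 with the most counted probe. The part of such high and low mice in these calls was not tested. B2m, H2-D1, Tap1, Tap2 and Tapbp differed by -0.07, 0, -0.5, 0.15 and 0.17 (adjusted p = 1 by edgeR in each).

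In treated mice the H2-K1 probe was not called. Over the 3 doses, 15 treated males had 1221 to 2196 CPM (median 1540) and 14 treated females 1162 to 2135 CPM (median 1636). The comparison, which was chosen after seeing the data and rests on mice independent of the controls, gave 0.07 (95% confidence interval -0.1 to 0.23, adjusted p = 0.979 by edgeR). H2-K1_30014 gave 0.26 and H2-K1_70796 gave 0.39, and neither was called (adjusted p of 0.315 and 0.506 by edgeR). Whether the sex difference itself changed with dose is the comparison of female and male effects above, in which H2-K1 was not called. The call in controls was also lost without any 1 of 5 mice (101, 102, 104, 151 and 154), with a range of 0.38 to 0.53 and adjusted p from 0.0368 to 0.192 by edgeR.

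Among the class II genes the median sex difference in controls was 1.14, against 0.07 for class I and 0.03 for all probes. Cd74 was higher in female controls by 1.14 (SE 0.36, 95% confidence interval 0.4 to 1.89), which narrowly failed the threshold (adjusted p = 0.102 by edgeR). It was called by DESeq2 (1.12, adjusted p = 0.0317), with counts in molecules (1.11, adjusted p = 0.0406 by edgeR) and without 1 mouse (male control 103, or female control 153 or 155; adjusted p of 0.0765, 0.0444 and 0.0857 by edgeR). H2-Aa and H2-Ab1 differed by 0.83 and 2.1 in the same direction and were not called (adjusted p of 0.995 and 0.736 by edgeR).

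**Figure D3:**
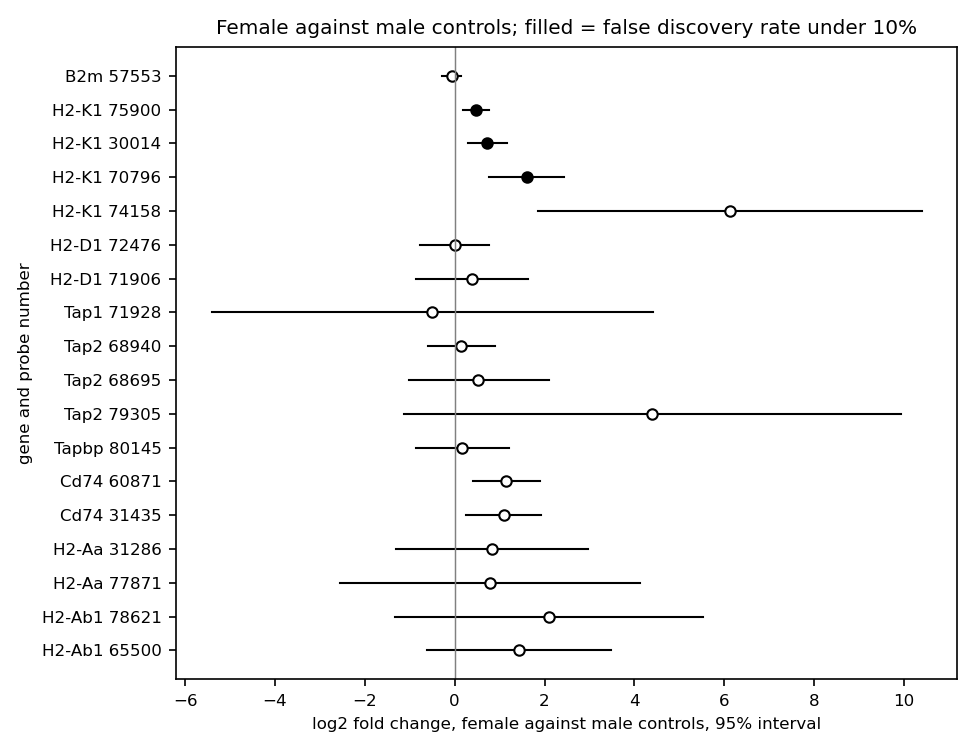
Log2 fold change of female over male controls (horizontal axis) for the 18 tested probes of the 9 genes, with 95% confidence intervals as bars; a filled point marks an FDR under 10%. The filled points are 3 probes of H2-K1, and both Cd74 probes lie above 1.

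Averaged over the doses, Cd74 and Tap2 were higher in treated females than in treated males. Cd74 had 90.9 to 338 CPM (median 198) in 15 treated males and 177 to 696 CPM (median 326) in 14 treated females. The ranges overlapped, and the average difference over the doses was 0.82 (SE 0.21, 95% confidence interval 0.39 to 1.26, adjusted p = 0.0174 by edgeR). A second Cd74 probe gave 0.72 (adjusted p = 0.0837 by edgeR). Tap2 differed by 0.92 (SE 0.22, 95% confidence interval 0.47 to 1.36, adjusted p = 0.00409 by edgeR) on its most counted probe. The male and female means of that probe were 19.3 and 17.5 CPM at 0.1 mg/kg bw/d, so females did not stand higher there. They were 12.6 and 28.1 CPM at 0.5 mg/kg bw/d and 11.7 and 39.1 CPM at 5 mg/kg bw/d. Another probe, Tap2_68695, had male and female means of 15.9 and 14.3 CPM at 0.1 mg/kg bw/d. Its means were 14.1 and 15.9 CPM at 0.5 mg/kg bw/d and 7.04 and 20 CPM at 5 mg/kg bw/d. Called higher in treated females were 2 of 9 genes and 3.77% of all probes. Both calls held in each of 29 fits without 1 treated mouse (0.73 to 0.89 for Cd74 and 0.8 to 0.98 for Tap2) and with DESeq2.

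The Tap2 difference was widest at 5 mg/kg bw/d, where males had 6.25 to 15.8 CPM and females 27.1 to 49.2 CPM. The groups did not overlap (2.98% of all probes had ranges apart there), and the difference was 1.73 (SE 0.39, 95% confidence interval 0.97 to 2.5, adjusted p = 0.00375 by edgeR; 1.17% of all probes were called higher in females). In controls Tap2 differed by 0.15, and the change of this sex difference from controls to 5 mg/kg bw/d is the 1.58 given above, which was not called. At 5 mg/kg bw/d the probe Tap2_68695 had 2.79 to 14.6 CPM in males and 0.828 to 47.1 CPM in females, so its ranges overlapped. The remaining treated differences of the class I genes were 0.07 for H2-K1, 0.56 for H2-D1, 0.49 for Tapbp, -0.04 for B2m and 0.06 for Tap1, and none was called. H2-Aa (1.08) and H2-Ab1 (1.4) were not called.

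Markers of other liver cells moved with sex too, and their part in these results was not tested. In a bulk liver section fewer cells of a type and less RNA per cell cannot be told apart. The summed level of all 14 macrophage and Kupffer cell markers on the panel, of which 12 were tested, was 163 to 297 CPM in male controls and 284 to 462 CPM in female controls. In treated mice 3 of the 12 were called higher in females, against 3.77% of all probes. They were C1qb (0.44, adjusted p = 0.0874 by edgeR), Cd5l (0.64, adjusted p = 0.0422 by edgeR) and Csf1r (0.73, adjusted p = 0.0497 by edgeR). Leaving out 1 mouse lost Csf1r (without 452) or Cd5l (without 351), and C1qb was lost in 19 of 29 such fits. The 6 pan-leukocyte markers summed to 37.4 to 80.7 CPM in male controls and 61.6 to 120 CPM in female controls, and Cd53 was the 1 called in treated mice (0.86, adjusted p = 0.00942 by edgeR). Of other lists, 1 of 7 T and NK cell markers (Gzma, mean 0.306 CPM, reads in 5 mice) and 3 of 10 endothelial markers (Stab2, Clec4g and Tek) were called higher in treated females. So were 2 of 9 hepatocyte markers (Alb and Cyp2e1) and 1 of 3 cholangiocyte markers (Krt7, mean 0.323 CPM), against the same 3.77% of all probes.

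H2-K1 was covered by 4 tested probes, and 1 of them fell into separate levels between mice. H2-K1_74158 had 0 to 22.2 CPM in 25 mice and 177 to 1068 CPM in 14 mice, with no mouse between. Male controls had 2.75, 22.2, 4.06, 0.873 and 0 CPM and female controls 762, 4.38, 3.95, 1068 and 238 CPM. At 0.1 mg/kg bw/d males had 3, 1.9, 516, 330 and 563 CPM and females 5.71, 3.71, 264, 7.91 and 0 CPM. High and low mice thus stood side by side within a group.

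At 0.5 mg/kg bw/d the H2-K1_74158 values were 3.14, 0, 177, 7.72 and 5 CPM in males and 9.05, 11.6, 5.51 and 9.34 CPM in females. At 5 mg/kg bw/d they were 2.77, 333, 184, 2.91 and 1.48 CPM in males and 648, 10.7, 300, 422 and 539 CPM in females. Mice over 100 CPM numbered 0 of 5, 3 of 5, 1 of 5 and 2 of 5 in males at rising doses and 3 of 5, 1 of 5, 0 of 4 and 4 of 5 in females. No comparison with controls was called for this probe: the fitted differences were 5.57 in males at 0.1 mg/kg bw/d (adjusted p = 0.35 by edgeR) and -5.55 in females at 0.5 mg/kg bw/d (adjusted p = 0.497 by edgeR). The sex difference in controls was 6.12 (95% confidence interval 1.85 to 10.39, adjusted p = 0.143 by edgeR). This probe made up 0 to 18.7% of the CPM of the 4 probes together.

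Over the 39 mice, H2-K1_74158 had a Pearson r of 0.75 with H2-K1_70796, 0.53 with H2-K1_75900 and 0.26 with H2-K1_30014, while H2-K1_75900 and H2-K1_30014 had 0.73 with each other. These are descriptions over mice that share libraries and groups. The most counted probe, which carries the H2-K1 results above, ranged from 1162 to 2574 CPM.

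**Figure D4:**
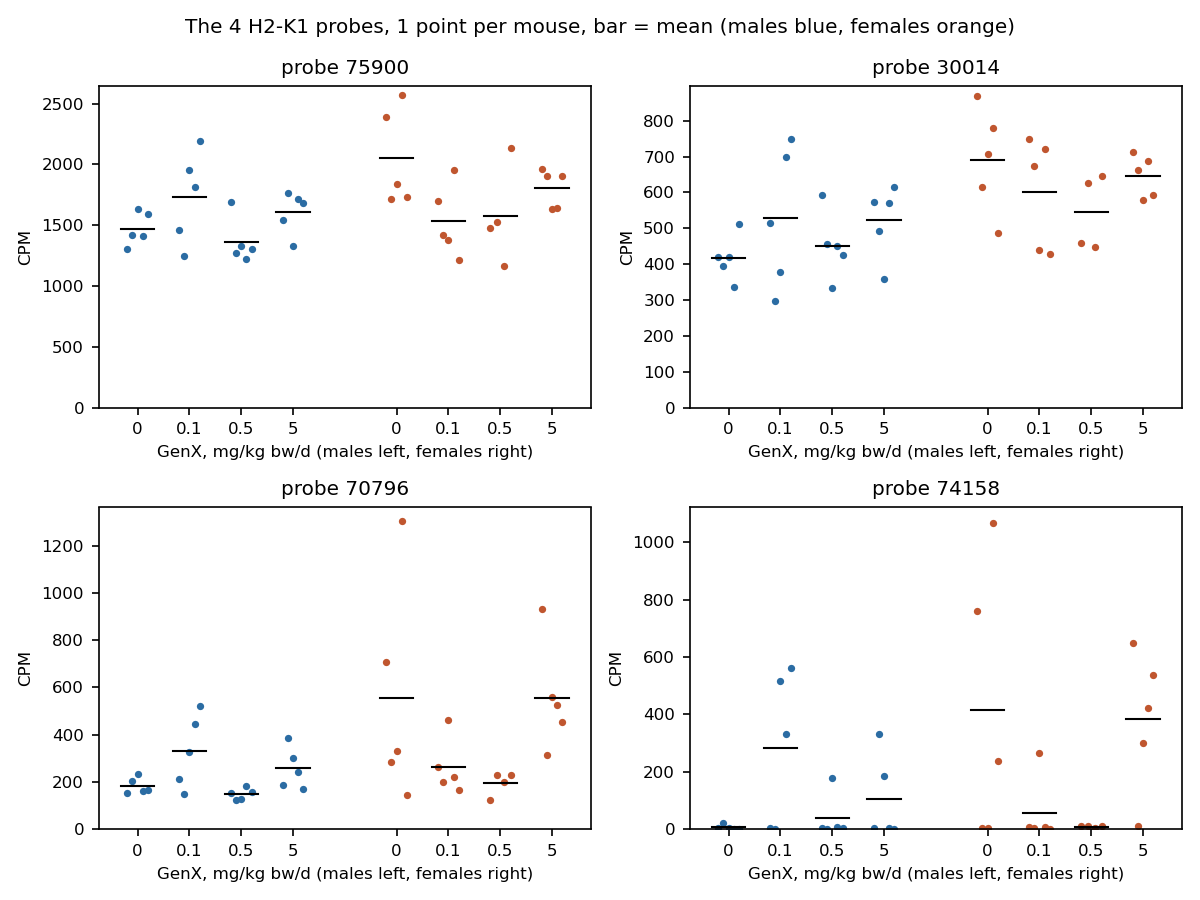
CPM of the 4 H2-K1 probes (vertical axes, linear, each from 0) in each mouse by dose (mg/kg bw/d), males in blue and females in orange, with bars at the group means. For H2-K1_74158, 25 mice lie at or under 22.2 CPM and 14 at or over 177 CPM.

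Further genes of the 2 pathways gave no call against controls of the same sex. Of a list of 25 other class I pathway genes (heavy chain relatives, immunoproteasome subunits, peptide trimming enzymes and chaperones), 24 were on the panel, 23 were tested and 0 were called in any of the 6 comparisons. The 2 with the smallest p were H2-Q1 (0 to 7.12 CPM in female controls and 0 in all 5 females at 5 mg/kg bw/d, adjusted p = 0.139 by edgeR) and H2-M3 (0 to 4.37 CPM in female controls and 0 in all 4 females at 0.5 mg/kg bw/d, adjusted p = 0.497 by edgeR). Of 20 other class II pathway genes, 16 were on the panel, 13 were tested and 0 were called. Ctss, the protease that trims the invariant chain, differed by -0.75 in females at 0.5 mg/kg bw/d (adjusted p = 0.497 by edgeR), and H2-Ob was 0 in all 5 male controls and 0 to 4.42 CPM in males at 0.1 mg/kg bw/d (adjusted p = 0.35 by edgeR). Averaged over the sexes, 1 class I pathway gene was called at 5 mg/kg bw/d: Pdia3, a chaperone that helps load class I molecules, was lower by a log2 difference of -0.27 (SE 0.09, adjusted p = 0.0439 by edgeR), where 12.5% of all probes were called. It was also lower in males at 5 than at 0.5 mg/kg bw/d (-0.5, adjusted p = 0.0201 by edgeR).

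In the sex comparisons these lists gave a few calls. Between controls H2-Q4, a heavy chain relative, went from 665 ± 79 CPM in males to 938 ± 64.6 CPM in females (0.5, adjusted p = 0.0118 by edgeR), and Ctss from 36.3 ± 12.1 to 84.5 ± 27.3 CPM (1.22, SE 0.27, adjusted p = 0.00313 by edgeR). Cd5l was the 1 macrophage marker called there (1.05, adjusted p = 0.0851 by edgeR). Over all probes 2.14% were called higher in female controls. In treated mice Ctss was higher in females by 0.99 (SE 0.16, adjusted p = 3.31e-06 by edgeR), in each of 29 fits without 1 mouse as well. Of the 23 class I pathway genes 4 were called higher in treated females, against 3.77% of all probes, namely H2-Q4 (0.24), H2-T23 (0.61), Psmb9 (1.3), an immunoproteasome subunit, and Erap1 (0.43), which trims peptides. The list's median was 0.26, and that of the class II pathway list 0.53, against -0.03 over all probes.

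Of 33 interferon response genes 30 were tested, and 2 were called in males and 0 in females. By dose, 1, 1 and 2 of 30 were called in males, against 0.0168%, 2.48% and 8.46% of all probes, and 0 in females, against 0%, 0.19% and 3.6%. The median over the list at rising doses was 0.19, 0.37 and 0.54 in males and -0.72, -0.52 and 0.15 in females, against 0, 0 and 0.1 over all probes in males and 0, 0 and -0.01 in females, and the members above 0 numbered 23, 21 and 22 of 30 in males and 4, 4 and 18 of 30 in females. These differences start from unlike controls. Between controls 28 of 30 members stood higher in females, with a median of 1.19, against 0.03 over all probes. The list summed to 300 to 464 CPM in male controls and 467 to 1747 CPM in female controls. The part of this baseline in the opposite signs was not tested. Cxcl10, a chemokine gene, had 0 CPM in all 5 male controls, 0 to 6.3 CPM at 0.1 mg/kg bw/d, 0 to 6.69 CPM at 0.5 mg/kg bw/d and 2.91 to 7.96 CPM at 5 mg/kg bw/d (adjusted p of 0.0467, 0.000746 and 3.78e-05 by edgeR). The female controls had 2.73 to 24.2 CPM and females at 5 mg/kg bw/d 0 to 59.7 CPM, and male and female controls differed (adjusted p = 5.25e-05 by edgeR). In males these Cxcl10 values lay near the floor. The male groups held medians of 329947 molecules per library in controls and 331954, 448079 and 591295 at rising doses. The part of this depth in the Cxcl10 calls was not tested. Ifngr1, a chain of the interferon gamma receptor, rose from 18.1 ± 6.44 to 38.8 ± 13.1 CPM in males at 5 mg/kg bw/d (1.1, SE 0.35, adjusted p = 0.0357 by edgeR). In treated mice Irf1 was called higher in females (0.89, adjusted p = 0.0127 by edgeR).

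Cell type markers were read beside the male Tap2 result, and their part in it was not tested. The macrophage and Kupffer cell markers, led by C1qb (mean 71.3 CPM), Lyz2 (62.7) and Cd5l (48.1), summed to 163 to 297 CPM in male controls and 194 to 332 CPM at 5 mg/kg bw/d. Of the 12, Csf1r fell (-1.11, SE 0.4, adjusted p = 0.0842 by edgeR), from 27.9 ± 14.4 to 12.9 ± 5.51 CPM. The 9 tested hepatocyte markers, led by Apoa1 (19391), Cyp2e1 (5471) and Alb (3837), summed to 35094 to 43034 CPM in male controls and 20492 to 28274 CPM at 5 mg/kg bw/d. Of these markers 5 were called lower, against 3.48% of all probes. At that dose the sums in females were 21427 to 31177 CPM against 27504 to 45906 CPM in controls. Here 3 were called lower, against 1.79% of all probes. Apoa1, with the highest mean of these markers, was also lower in the paper, which relates this to activation of the receptor PPARα in rodents. In such a sum a change in Apoa1 itself and a change in the share of hepatocytes cannot be told apart. Of the 10 endothelial markers, led by Tek (88.1), Clec4g (87.6) and Fcgr2b (71.5), Clec4g fell in males at 5 mg/kg bw/d (-0.61, adjusted p = 0.0492 by edgeR).

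Markers of dendritic cells and B cells were barely seen, while C1qb, Lyz2 and Cd5l of the macrophage and Kupffer cell list had reads in all 39 mice. Sums are over every marker of a list on the panel. Dendritic cell markers (4 of 10 tested) were led by Clec9a (mean 5.24 CPM), Zbtb46 (2.96) and Itgae (0.568) and summed to 0 to 15.7 CPM in male controls and 5.6 to 26.9 CPM in female controls; Itgax had reads in 3 mice and Flt3 in 2. B cell markers (5 of 9 tested) included Ighm (4.57) and Cd79b (0.733) and summed to 2.22 to 11.2 CPM and 4.05 to 13.4 CPM; Ms4a1 had reads in 1 mouse and Blk and Fcmr in 0. T and NK cell markers (7 of 14 tested) were led by Cd3d (5.48), Ccl5 (1.48) and Nkg7 (1.18). Pan-leukocyte markers were led by Cd53 (29.8), Coro1a (15.5) and Laptm5 (8.27). None of these 4 lists, nor 3 cholangiocyte markers (Spp1 44, Krt19 2.79, Krt7 0.323) or 6 stellate cell markers (Dcn 45.8, Col1a1 22.8, Reln 10.1), had a call against control in either sex. Of the macrophage and Kupffer cell markers, the sparser Adgre1, Clec4f and Vsig4 had reads in 25, 31 and 18 mice, and Timd4 in 0.

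As a check of the dose labels, 7 known targets of PPARα, a nuclear receptor that raises fatty acid oxidation genes, were read in the same fit; the most counted were Ehhadh, Cyp4a10 and Acot1. In males 5 rose at 0.5 mg/kg bw/d and 6 at 5 mg/kg bw/d, and in females 3 and 4 rose. Over all probes 1.83% and 4.98% were called higher in males at these doses, and 0.179% and 1.81% in females.

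Finally, the genes whose pattern over the 39 mice was most like each class were looked for, as a description. For the mean of the 6 standardized class I genes they were Trafd1 (Pearson r of 0.7), Psmb9 (0.64), Parp14 (0.63), Igtp (0.61) and Ly6e (0.61). For the 3 class II genes they were Mpeg1 (0.8), Gbp2b (0.77), Ctss (0.76) and Tgtp1 (0.76). All share libraries, doses and sexes with the members. Within the members, the 2 Cd74 probes had an r of 0.91, Cd74 and H2-Ab1 0.65, Cd74 and Tap2 0.51, Cd74 and H2-Aa 0.47, and B2m and H2-K1 0.37. The 2 most counted Tap2 probes had 0.21 and the 2 H2-Aa probes 0.08.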

How the data were processed

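Livers of 40 mice were profiled by TempO-Seq, in which pairs of probes are ligated on their target RNA, amplified and sequenced. The authors deposited raw read counts per probe and mouse; per the labels, bcl2fastq 2.17.1.14 and Bowtie were used with mm10, and no molecular identifiers were described. Because the reads are PCR copies, molecules were estimated as total reads over the first peak of each library's count histogram. Animal 355 (6711981 reads) was left out by the study's own depth criterion, 2 SD below the mean of 13041142 reads (9680193).

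All 8 groups were fitted together (39 libraries) in edgeR 4.0.16 under R 4.3.3, with TMM scaling, filterByExpr, robust glmQLFit and two-sided quasi-likelihood F-tests, with Benjamini-Hochberg adjustment over 17877 probes and a threshold of 10%. Log2 CPM used a prior count of 2. DESeq2 1.42.0, DESeq2 size factors, no filter, all libraries, only the groups compared, summed probes, other probes, molecules and leaving out each mouse were alternatives. No 2 libraries were identical (highest r 0.8514). The script was tested on simulated data. The members and lists were chosen with earlier results of these data known. All members were named on their most counted probe; of each wider list, the genes called or, with none called, the 2 with the smallest p; of each marker list, the 3 with the highest mean CPM. A few genes that these rules name are not reported here. Other names and the comparison of treated mice between sexes were chosen after the values were seen. P-values set the difference between groups against the spread between mice, which was estimated over all 8 groups.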

Additional observations from a re-analysis of the deposited data

Results flagged for a closer look

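Single mice stood apart from their group in 8 of 73 sets of a gene and a group by Dixon's test. It flags about 1 in 20 sets of normally distributed values, a rate that does not hold for sparse counts. Where all other mice are at 0, any mouse with reads is flagged. B2m was 983 CPM in 1 female at 0.1 mg/kg bw/d (others 1321 to 1439 CPM), and H2-K1 was 1688 CPM in 1 male at 0.5 mg/kg bw/d (others 1221 to 1330 CPM). Tapbp was 27.8 CPM in 1 male control (others 12.9 to 16.2 CPM) and 27 CPM in 1 female at 0.5 mg/kg bw/d (others 10.5 to 12.1 CPM). H2-Aa was 7.02 CPM in 1 male at 0.5 mg/kg bw/d (others 2.07 to 2.57 CPM). Tap1 was 2.96 CPM in 1 female at 0.1 mg/kg bw/d and 4.36 CPM in 1 female at 0.5 mg/kg bw/d, and H2-Eb1 was 3.25 CPM in 1 male control, with all others of each group at 0.

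In the library left out for low depth (an estimated 92099 molecules), H2-D1 had 251 CPM without TMM scaling, above the 91.8 to 162 of the female controls, and Tapbp had 71.1, above 10.5 to 26. In the same library B2m had 480 (female controls 1102 to 1659) and Cd74 27.7 (200 to 925).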

How the results depend on the processing

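The count of genes called in males at 5 mg/kg bw/d (1) was 2 with DESeq2, with counts in molecules and with thinned molecules, and 0 with no filter on low counts, all 40 libraries, summed probes or no robust option; it was 0 to 1 without 1 mouse. The count called between controls of the 2 sexes (1) was 2 with DESeq2, molecules, thinned molecules, no robust option and treated mice in place of controls, 0 with all 40 libraries, and 0 to 2 without 1 mouse. Tap2 in males at 5 mg/kg bw/d reversed to 3.6 by its least counted probe, Tap2_79305, and had an adjusted p of 0.117 with no filter, 0.165 with all 40 libraries, 0.105 with summed probes and 0.101 with no robust option by edgeR. Of 1460 alternatives for single genes, 1423 kept a call with its direction or stayed uncalled, 20 lost a call, 16 gained one and 1 called value reversed; 74 of 1388 compared had another sign. DESeq2 called 274, 865 and 1864 probes in males and 166, 302 and 988 in females at rising doses, and 1092 between controls. Thinning, which was a single random draw, the fit with no robust option and the treated mice were chosen after seeing the data. No paired analysis was possible because animal numbers are not shared between groups. Tap1, H2-Ab1, H2-Aa and H2-Eb1 had too few molecules to show any but very large changes.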

Other observations

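Other probes were searched for many low and many high mice, as for H2-K1_74158. Of 920 tested probes with a mean of 100 to 300 CPM, 13 (1.41%) had at least 10 mice under 50 CPM and at least 10 over 100 CPM. This rule does not require a gap: 2 of the 13, H2-K1_74158 and Sult2a1, had no mouse between 50 and 100 CPM, and the rest had up to 10. The others targeted Sult2a1, Cyp2a4, Saa2, Keg1, Elovl3, Gm10681, Cwc22, Prlr, Mt2, C6, Lpin1 and Cyp4a12a; among them are genes with known sex differences in liver (Sult2a1, Cyp2a4, Elovl3, Cyp4a12a and Prlr) and acute phase or metal response genes (Saa2 and Mt2). High and low mice of H2-K1_74158 occurred in both sexes.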
